A study of Mus musculus with 87 samples.

Results

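Midbrain dopamine neurons make dopamine from tyrosine, store it in vesicles, release it and take it back up, and a small set of genes carries this work. Tyrosine hydroxylase (Th) and aromatic L-amino acid decarboxylase (Ddc) are the enzymes of synthesis, the vesicular monoamine transporter (Slc18a2, VMAT2) fills the vesicles, and the dopamine transporter (Slc6a3, DAT) recovers the transmitter from outside the cell. Transcription factors, among them Nr4a2 (Nurr1), En1 and Pitx3, specify and maintain these neurons in the substantia nigra and ventral tegmental area.

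The genes described here are 10 dopamine identity and transmitter genes, taken by symbol from the deposited count tables, which each hold 48526 genes. They are the enzymes Th and Ddc, the transporters Slc6a3 and Slc18a2, the dopamine receptor Drd2, the transcription factors Nr4a2, En1 and Pitx3, the aldehyde dehydrogenase Aldh1a1 and the solute carrier Slc10a4. Each symbol matched 1 gene in the sorted bulk nuclei and 1 in the single nuclei. The choice used symbols alone and no measured value, but it was made with earlier results of these data known.

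All samples came from ventral midbrain of wildtype C57BL/6J mice, injected there with 400 nL of saline or with 40 ng of IFN-γ in the same volume. In each of 2 fractions, NeuN+ (neuronal) and NeuN- nuclei, there were 6 wells from IFN-γ-injected mice for each of the times 6, 24, 48 and 72 h. Times are hours from the injection. The saline wells numbered 4 at 6 h, 6 at 24 h, 4 at 48 h and 4 at 72 h in each fraction. Single nuclei were sequenced at 48 h as 1 saline library and 2 IFN-γ libraries, with 1016, 2574 and 1109 nuclei. The labels of the deposit call every bulk well NeuN+, so the fraction was taken from the study's own list of well barcodes. The wells came from a few mice in each group, and which wells shared a mouse is not given, so the p-values measure the spread between wells, which may be technical.

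Counts are unique molecular identifiers (UMIs), and levels are given as CPM, the UMIs of a gene scaled to a common total of its well or of its summed nuclei. NeuN+ wells held 277113 to 1684374 UMIs and NeuN- wells 20962 to 301445, so a single UMI weighs more in a NeuN- well. The neuronal gene Rbfox3, which encodes the NeuN antigen, averaged 132 ± 31.0 CPM in NeuN+ saline wells and 13.9 ± 29.9 CPM in NeuN- saline wells (SD, n = 18 in each). The interferon-induced gene B2m averaged 4.96 ± 3.24 CPM in NeuN+ saline wells (n = 18) and 68.1 ± 31.6 CPM in NeuN+ IFN-γ wells (n = 24). Xist, the X-inactivation RNA of female cells, split the NeuN+ wells. It lay between 21.0 and 48.9 CPM in 6 saline wells, namely the 4 of 72 h and replicates 5 and 6 of 24 h, and between 780 and 1177 CPM in the other 12 saline wells. IFN-γ wells of 24 and 72 h were low in Xist (23.2 to 74.9 CPM) and those of 6 and 48 h were high (878 to 1266 CPM). At 24 h, therefore, 4 of the 6 saline wells differed from all IFN-γ wells in Xist, and the 24 h fold changes of the 8 genes tested in NeuN+ wells are also given without replicates 5 and 6 and with them alone, choices made after seeing the data. The Y-linked gene Eif2s3y divided the wells further. It was at 287.5 to 432.4 CPM in the wells low in Xist, at 65.0 to 80.9 CPM in the 4 saline wells of 6 h and at 90.3 and 77.2 CPM in saline replicates 1 and 2 of 24 h, but at 0 to 7.96 CPM in the other wells high in Xist. The saline and IFN-γ wells of 6 h therefore differed in Eif2s3y, as did the 12 saline wells high in Xist among themselves.

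In GRCm38 with the Gencode annotation, Th spans chr7:142892752-142931128 on the minus strand and Ddc chr11:11814101-11898144 on the minus strand. Slc6a3 spans chr13:73536747-73578672 on the plus strand, Slc18a2 chr19:59260896-59296012 on the plus strand and Drd2 chr9:49340627-49408177 on the plus strand. Nr4a2 lies at chr2:57106830-57124003 on the minus strand, En1 at chr1:120602418-120607992 on the plus strand and Pitx3 at chr19:46135685-46148326 on the minus strand. Aldh1a1 lies at chr19:20492715-20643465 and Slc10a4 at chr5:73006883-73012955, both on the plus strand. Genes on the opposite strand overlap Ddc (1700042O10Rik), Slc18a2 (Gm29261), Pitx3 (Elovl3) and Aldh1a1 (C730002L08Rik and Gm6684). Whether the counting used strand is not stated for these tables, so part of the counts of these 4 genes could belong to their neighbours.

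Promoters are shown for both synthesis enzymes, for Slc6a3, whose level depended most on the saline wells it was set against, and for Nr4a2, which binds the NBRE. Each runs from 250 bases before to 50 bases after a RefSeq transcript start in GRCm38.p6 and is written 5′ to 3′ on the strand of its gene. All 10 genes matched a RefSeq promoter, with 12 promoters between them. The motifs searched were the NBRE (AAAGGTCA), which NR4A proteins bind, and the GAS element (TTCNNNGAA), found in promoters of genes induced by IFN-γ, each on both strands. Capitals mark a match to the NBRE. The Th window is chr7:142899946-142900245 (minus strand), the Slc6a3 window chr13:73536497-73536796 (plus strand), the Ddc window chr11:11898095-11898394 (minus strand) and the Nr4a2 window chr2:57123954-57124253 (minus strand).
Th: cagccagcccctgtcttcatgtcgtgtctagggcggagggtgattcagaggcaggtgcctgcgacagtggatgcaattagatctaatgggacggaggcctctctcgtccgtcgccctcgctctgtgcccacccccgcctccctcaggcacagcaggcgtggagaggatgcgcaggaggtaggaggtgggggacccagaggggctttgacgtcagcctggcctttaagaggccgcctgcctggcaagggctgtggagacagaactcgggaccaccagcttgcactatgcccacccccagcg
Slc6a3: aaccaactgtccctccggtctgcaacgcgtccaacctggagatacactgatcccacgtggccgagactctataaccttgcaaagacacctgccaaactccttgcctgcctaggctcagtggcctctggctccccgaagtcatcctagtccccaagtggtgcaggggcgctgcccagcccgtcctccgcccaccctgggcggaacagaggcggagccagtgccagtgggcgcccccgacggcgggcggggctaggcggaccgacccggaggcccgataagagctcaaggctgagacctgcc
Ddc: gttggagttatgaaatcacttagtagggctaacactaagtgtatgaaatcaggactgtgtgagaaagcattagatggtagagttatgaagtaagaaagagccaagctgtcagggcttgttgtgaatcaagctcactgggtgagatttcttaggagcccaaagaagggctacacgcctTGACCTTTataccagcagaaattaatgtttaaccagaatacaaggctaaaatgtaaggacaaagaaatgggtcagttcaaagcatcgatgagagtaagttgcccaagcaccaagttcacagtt
Nr4a2: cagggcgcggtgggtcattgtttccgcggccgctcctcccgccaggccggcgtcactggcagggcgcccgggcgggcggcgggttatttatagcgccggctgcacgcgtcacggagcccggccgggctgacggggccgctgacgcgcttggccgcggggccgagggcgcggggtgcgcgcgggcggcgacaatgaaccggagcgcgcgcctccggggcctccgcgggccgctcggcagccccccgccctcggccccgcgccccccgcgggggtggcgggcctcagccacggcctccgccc
The NBRE letters occurred in 495 of 32851 promoters of this length (1.51%) and in 1 of the 12 promoters of these genes, the Ddc window shown, 73 to 66 bases before the start on the opposite strand. The other Ddc promoter, chr11:11890359-11890658 (minus strand), did not hold it. The GAS letters occurred in 2726 of the 32851 promoters (8.30%) and in 0 of the 12. A match or its absence describes the letters in these windows and does not show binding.

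In saline wells the dopamine genes were mostly higher in NeuN+ nuclei, though Ddc and Aldh1a1 were also frequent in NeuN- nuclei. Drd2, the D2 receptor that also serves dopamine neurons as an autoreceptor, ranged from 19.9 to 76.9 CPM (median 42.7) in the 18 NeuN+ wells and from 0 to 19.7 CPM (median 0) in the 18 NeuN- wells. The log2 difference was 3.75 (SE 0.37, adjusted p = 2.08e-13, edgeR), and all NeuN+ wells lay above the highest NeuN- well. Slc18a2 ranged from 50.8 to 167 CPM (median 117) against 0 to 37.5 CPM (median 9.69), a log2 difference of 3.14 (SE 0.25, adjusted p = 3.87e-17). Slc6a3 ranged from 19.9 to 75.7 CPM (median 54.7) against 0 to 29.5 CPM (median 0), a log2 difference of 3.27 (SE 0.37, adjusted p = 1.34e-11). Both transporters were thus higher in NeuN+ nuclei, although the lowest NeuN+ wells of Slc6a3 reached the highest NeuN- wells. Ddc stood less far apart, at 60.3 to 129 CPM (median 98.6) in NeuN+ and 0 to 84.8 CPM (median 27.9) in NeuN- wells, with a log2 difference of 1.37 (SE 0.18, adjusted p = 1.35e-09). Aldh1a1, which oxidises retinal and dopamine aldehydes, did not differ between fractions, at 14.3 to 52.2 CPM (median 30.2) and 0 to 74.4 CPM (median 28.5), with a log2 difference of 0.07 (SE 0.22, adjusted p = 0.787).

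Of these 5 genes tested, 4 were called higher in NeuN+ wells at a log2 limit of 0.5 and an adjusted p below 0.01, where 31.0% of the 6393 genes tested were called higher and 58.9% in either direction. Th, Nr4a2, En1, Pitx3 and Slc10a4 did not pass the filter on low counts here. Without that filter Th (log2 difference 2.08), Nr4a2 (2.58), En1 (4.56) and Slc10a4 (3.13) were also called higher. Over all 42 NeuN- wells these 4 genes held 14, 24, 10 and 4 UMIs, Slc6a3 held 25, Drd2 12, Slc18a2 67, Ddc 131 and Aldh1a1 164 UMIs. Pitx3 had 0 UMIs in every NeuN- well and 108 UMIs over the 42 NeuN+ wells.

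At 72 h, the latest time, 6 of the 8 genes tested were higher in NeuN+ wells after IFN-γ than after saline. Calls needed a log2 fold change of more than 1 in size and an adjusted p-value (edgeR, Benjamini-Hochberg) of less than 0.01. The 6 are both synthesis enzymes, both transporters, En1 and Aldh1a1. Of all 9405 genes tested at 72 h, 0.351% were called higher and 0.766% in either direction. The median log2 fold change of the 8 genes was 1.12, against 0.00 over all genes tested. In these bulk wells, more dopamine nuclei per well and more RNA per nucleus cannot be told apart.

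Of the synthesis enzymes, Th, the rate-limiting one, was at 11.6, 13.0, 12.9 and 10.3 CPM in the saline wells of 72 h and at 13.4 to 34.4 CPM (median 25.5) in the 6 IFN-γ wells. Its mean went from 11.9 ± 1.24 CPM (SD, n = 4) to 25.1 ± 7.01 CPM (n = 6), a log2 fold change of 1.06 (SE 0.25, adjusted p = 0.00552). The lowest IFN-γ well lay just above the highest saline well, so the groups did not overlap by a narrow margin. The call was lost without any one of saline replicates 1, 2 and 4 or IFN-γ replicates 1, 3 and 4, with log2 fold changes of 0.94 to 1.10 and adjusted p-values up to 0.0424. Ddc was at 82.2, 69.4, 60.6 and 60.3 CPM in saline wells and at 129 to 170 CPM (median 153) in IFN-γ wells, with a log2 fold change of 1.11 (SE 0.10, adjusted p = 2.25e-09). Here a wide gap separated the groups.

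Of the transporters, Slc6a3 showed the largest change of the 8 genes tested at 72 h. It was at 24.2, 25.0, 27.6 and 19.9 CPM in saline wells and at 63.0 to 92.7 CPM (median 74.5) in IFN-γ wells, and the log2 fold change was 1.66 (SE 0.14, adjusted p = 6.85e-10). Slc18a2 was at 115, 105, 71.7 and 50.8 CPM in saline wells and at 188 to 266 CPM (median 212) in IFN-γ wells, with a log2 fold change of 1.32 (SE 0.13, adjusted p = 1.82e-08). The saline wells of Slc18a2 themselves spread widely, yet none reached the lowest IFN-γ well.

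The receptor Drd2 was at 39.7, 33.3, 27.6 and 19.9 CPM after saline and at 43.9 to 71.8 CPM (median 58.4) after IFN-γ. Its log2 fold change of 0.91 (SE 0.17, adjusted p = 0.000419) missed the limit of 1, although the groups did not overlap. Without saline replicate 1 it was 1.09 and passed.

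Among the transcription factors, En1, which is needed for survival of midbrain dopamine neurons, was at 11.6, 12.02, 11.02 and 5.56 CPM in the saline wells of 72 h. The IFN-γ wells lay between 14.3 and 27.0 CPM (median 22.4), without overlap, and the log2 fold change was 1.12 (SE 0.26, adjusted p = 0.00569). It was not called without any one of 6 wells. The log2 fold change was 0.84 (adjusted p = 0.0760) without saline replicate 4, and 1.06 to 1.25 with adjusted p-values of 0.0105 to 0.0140 without one of the other 5. Nr4a2, an orphan nuclear receptor that acts on Th and Slc6a3, was at 19.4, 16.6, 14.7 and 12.7 CPM after saline and 16.6 to 34.4 CPM (median 26.4) after IFN-γ. These groups overlapped, and the log2 fold change of 0.66 (SE 0.22, adjusted p = 0.0584) did not pass. Pitx3, a homeobox factor of the same neurons, was too sparse to be tested, with 5 UMIs in the 4 saline wells and 28 in the 6 IFN-γ wells.

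Aldh1a1, which marks a ventral subset of nigral dopamine neurons, was at 30.0, 24.0, 27.6 and 14.3 CPM in saline wells and 43.9 to 68.7 CPM (median 56.1) in IFN-γ wells at 72 h. The groups did not overlap, and the log2 fold change was 1.25 (SE 0.18, adjusted p = 1.02e-05). Slc10a4, a vesicle protein of monoamine and cholinergic neurons, was at 6.77, 4.62, 5.51 and 5.56 CPM against 3.98 to 10.4 CPM (median 7.64), with overlapping groups, and did not pass the filter for testing. In all, 7 of the 10 genes had every IFN-γ well above every saline well at 72 h, where this held for 3.20% of the 16483 genes with at least 10 UMIs.

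**Figure D1:**
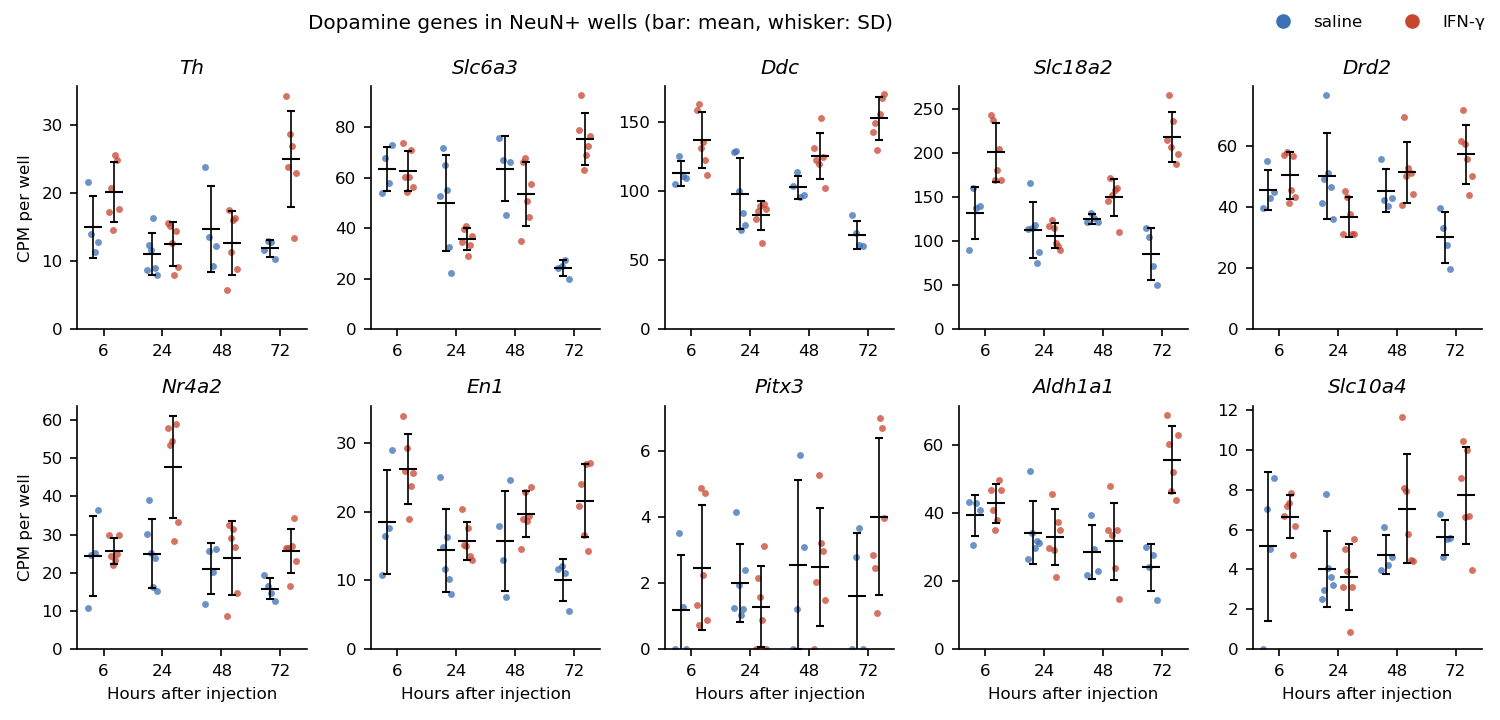
CPM of each of the 10 genes in every NeuN+ well by hours after injection, saline and IFN-γ side by side, with mean and SD. At 72 h the IFN-γ wells of 7 genes lie above all saline wells, and the 72 h saline wells of Slc6a3 (19.9 to 27.6 CPM) lie below those of 6 and 48 h (45.4 to 75.7 CPM).

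The size of the 72 h change depended on the saline wells it was set against. Slc6a3 was at 54.1, 68.0, 58.1 and 73.1 CPM in the saline wells of 6 h, at 75.7, 67.0, 45.4 and 66.2 CPM in those of 48 h, and at 19.9 to 27.6 CPM at 72 h. At 24 h it was at 52.7, 71.8, 65.2 and 55.3 CPM in saline replicates 1 to 4 but at 32.4 and 22.5 CPM in replicates 5 and 6, the pair low in Xist like the wells of 72 h. The 6 low wells, a set formed by Xist after seeing the data, did not overlap with the 12 others. How many of all genes separate both sets was not counted, so this is not shown to be particular to Slc6a3. Between 72 and 48 h the saline log2 difference of Slc6a3 was -1.34 (SE 0.27, adjusted p = 0.0118), and between 72 and 6 h it was -1.46 (SE 0.28, adjusted p = 0.0467).

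Over the 4 times together, 0 of the 8 genes tested passed in saline wells by edgeR, where 0.0497% of 10057 genes did, while 5 had an unadjusted p below 0.05 and DESeq2 called 1, Slc6a3. The largest saline difference between times was 1.46 for Slc6a3 (adjusted p = 0.0279), 1.03 for En1 (0.576), 0.76 for Nr4a2 (0.547), 0.74 for Aldh1a1 (0.431), 0.73 for Ddc (0.113), 0.68 for Slc18a2 (0.377), 0.67 for Drd2 (0.355) and 0.40 for Th (0.853). The difference between time means was thus largest for Slc6a3 and smallest for Th of the 8 genes tested.

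With the 12 saline wells high in Xist, from 6, 24 and 48 h, as controls, a choice made after seeing the data, 0 of the 8 genes reached a log2 fold change of 1 at 72 h. In that fit 74 of all genes were called, against 72 with the saline wells of 72 h. Th kept most of its change, at 0.94 (adjusted p = 0.000739), followed by Slc18a2 at 0.75 (5.48e-09), Aldh1a1 at 0.68 (0.000319) and Ddc at 0.51 (5.24e-05). These 4 remained below an adjusted p of 0.01. En1 was at 0.40 (0.241), Slc6a3 at 0.29 (0.0434), Drd2 at 0.25 (0.197) and Nr4a2 at 0.00 (0.998). Slc6a3, which had the largest change against the saline wells of its own time, therefore had one of the smallest here. These controls differed from the 72 h IFN-γ wells in both Xist and time, whereas the saline wells of 72 h matched them in both. With the saline wells of all times, Th alone of the 8 was called, where 54 of all genes were called.

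**Figure D2:**
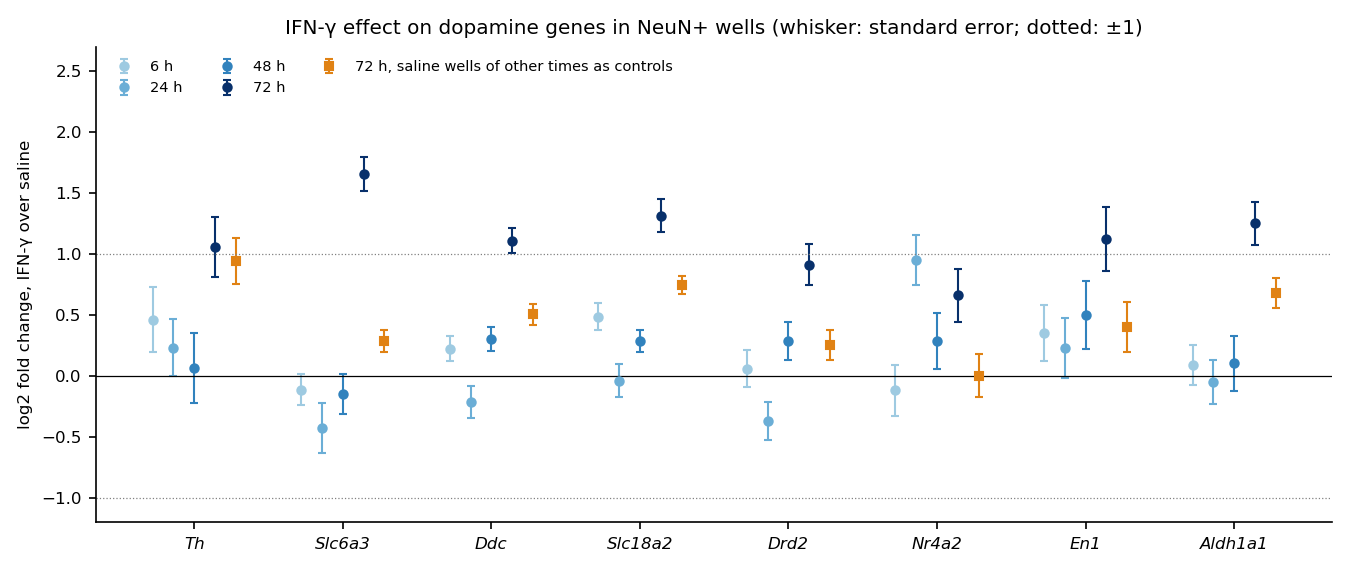
Log2 fold change of IFN-γ against saline NeuN+ wells at each time for the genes tested, with SE, and at 72 h also against saline wells of other times. Slc6a3 falls from 1.66 to 0.29 with the other controls, while Th goes from 1.06 to 0.94.

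Before 72 h none of the 8 genes tested was called in NeuN+ wells. At 6 h, 0 of the 8 tested were called by edgeR or DESeq2 and 2 had an unadjusted p below 0.05, where 1.37% of 9033 genes were called. Slc18a2 came nearest: it was at 90.2, 161, 138 and 140 CPM in saline wells and at 169 to 244 CPM (median 193) in IFN-γ wells, with a log2 fold change of 0.49 (SE 0.11, adjusted p = 0.00336). It was the 1 gene of the 10 whose groups did not overlap at 6 h, where IFN-γ wells all lay above for 4.28% of genes. Th was at 21.7, 14.1, 11.4 and 12.9 CPM after saline and 14.6 to 25.7 CPM (median 19.2) after IFN-γ, with overlapping groups and a log2 fold change of 0.46 (SE 0.27, adjusted p = 0.337). The other 6 lay between -0.12 for Nr4a2 and 0.35 for En1, with adjusted p-values of at least 0.209.

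At 24 h, 0 of the 8 genes tested were called by either tool and 3 had an unadjusted p below 0.05, where 1.73% of 9416 genes were called. Nr4a2, which is also an immediate early gene, came nearest the limit, at 15.2 to 39.2 CPM (median 24.6) in the 6 saline wells and 28.2 to 59.1 CPM (median 53.9) in the 6 IFN-γ wells. The means were 25.0 ± 8.92 and 47.7 ± 13.4 CPM (SD, n = 6 in each) and the log2 fold change 0.95 (SE 0.20, adjusted p = 0.00219), with overlapping groups. Without saline replicates 5 and 6 it was 0.77 (adjusted p = 0.0135), and with these 2 wells as the only controls it was 1.30 (adjusted p = 0.00106) and passed. It also passed, at 1.00 to 1.15, without any one of saline replicates 1 and 2 or IFN-γ replicates 4 and 6.

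Slc6a3 was not called at 24 h, at 22.5 to 71.8 CPM (median 54.0) in saline and 29.1 to 41.0 CPM (median 35.7) in IFN-γ wells. With all 6 saline wells the log2 fold change came to -0.43 (SE 0.21, adjusted p = 0.194), and it was -0.77 (adjusted p = 0.000167) without replicates 5 and 6. With only these 2 the sign turned, to 0.40 (adjusted p = 0.260). Drd2 was at 36.1 to 76.9 CPM (median 48.0) against 31.1 to 45.4 CPM (median 34.6), with a log2 fold change of -0.36 (SE 0.16, adjusted p = 0.139). Th (0.23, SE 0.24), Ddc (-0.21, SE 0.13), Slc18a2 (-0.04, SE 0.14), En1 (0.23, SE 0.24) and Aldh1a1 (-0.05, SE 0.18) had adjusted p-values between 0.349 and 0.912. Without saline replicates 5 and 6 the log2 fold change was -0.50 for Drd2, 0.05 for Th, -0.37 for Ddc, -0.26 for Slc18a2, -0.04 for En1 and -0.15 for Aldh1a1, with adjusted p-values of 0.0408 to 0.965. With these 2 wells as the only controls it was -0.11 for Drd2, 0.59 for Th, 0.08 for Ddc, 0.44 for Slc18a2, 0.80 for En1 and 0.11 for Aldh1a1, with adjusted p-values of 0.0394 to 0.848. The sign of Ddc, Slc18a2, En1 and Aldh1a1 thus turned with the saline wells used.

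At 48 h, 0 of the 8 genes were called by either tool and 2 had an unadjusted p below 0.05, where 0.169% of 10033 genes were called. The log2 fold changes ran from -0.15 for Slc6a3 (SE 0.16) to 0.50 for En1 (SE 0.28), and the lowest adjusted p was 0.161 for Slc18a2 (0.29, SE 0.09). Th was at 23.9, 13.5, 9.25 and 12.3 CPM in saline wells and 5.81 to 17.6 CPM (median 13.8) in IFN-γ wells, with a log2 fold change of 0.07 (SE 0.29, adjusted p = 0.968). These wells were high in Xist in both groups.

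Among the IFN-γ wells alone, the transporters passed as differing between the 4 times, which 4.18% of 10280 genes did. Slc18a2 was at 169 to 244 CPM at 6 h, 90.4 to 124 CPM at 24 h, 111 to 172 CPM at 48 h and 188 to 266 CPM at 72 h, a largest log2 difference of 1.03 (adjusted p = 1.85e-11). Slc6a3 followed the same order, at 54.5 to 73.9, 29.1 to 41.0, 34.9 to 67.7 and 63.0 to 92.7 CPM, a largest log2 difference of 1.09 (adjusted p = 2.44e-08). Both genes were lowest at 24 h and highest at 72 h, times that share low Xist. Without any one of IFN-γ replicates 4 and 5 of 24 h and replicate 2 of 72 h, Slc18a2 was at 0.97 to 1.00 and no longer passed the limit of 1.

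The other 6 genes had differences of 0.61 to 0.99 between times, with adjusted p-values of 0.00808 or less. Between 24 and 6 h Ddc fell by 0.73 (adjusted p = 4.62e-07) and En1 by 0.75 (0.00225) on the log2 scale, while Nr4a2 rose by 0.91 (0.000125). Between 72 and 24 h Th rose by 0.99, Ddc by 0.89, Aldh1a1 by 0.76 and Drd2 by 0.61, and Nr4a2 fell by 0.90 (adjusted p = 0.000121). Nr4a2 was highest at 24 h, when the enzymes and transporters were lowest.

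The effect of IFN-γ differed between times for 5 of the 8 genes tested, against 2.46% of 10953 genes. Wells of 6 and 48 h were high in Xist and those of 72 h low, and the saline wells of 24 h were mixed. A change of the effect with time therefore cannot be told apart from a difference between these sets of wells. The largest difference between the effects of 2 times was 2.07 on the log2 scale for Slc6a3 (adjusted p = 5.27e-07), 1.34 for Slc18a2 (4.26e-05), 1.32 for Ddc (3.66e-06), 1.29 for Aldh1a1 (0.00277) and 1.26 for Drd2 (0.000838). Th (0.97, adjusted p = 0.227), En1 (0.88, 0.351) and Nr4a2 (1.06, 0.0747) did not pass. Aldh1a1 was not called without saline replicate 4 of 72 h (1.04, adjusted p = 0.0430). Without the 72 h wells and saline replicates 5 and 6 of 24 h, a choice made after seeing the data, 0 passed by edgeR. The differences then were 0.89 for Nr4a2 (adjusted p = 0.216), 0.79 for Drd2 (0.0482), 0.75 for Slc18a2 (adjusted p = 0.00387), 0.67 for Ddc (0.0201), 0.65 for Slc6a3 (0.0646), 0.54 for En1 (0.641), 0.41 for Th (0.766) and 0.24 for Aldh1a1 (0.854).

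Markers of other neurons moved in the same wells. Lef1, Synpo2 and Prkcd are genes of thalamic relay neurons, which are not part of the midbrain. At 72 h Synpo2 averaged 143 ± 29.6 CPM after saline and 13.7 ± 5.92 CPM after IFN-γ, a log2 fold change of -3.42 (adjusted p = 8.62e-16), Lef1 changed by -3.78 (adjusted p = 4.99e-12) and Prkcd by -3.16 (adjusted p = 4.25e-11). These 3 were called lower of the 6 thalamic genes tested, whose median was -1.98. At 6 h 3 of 5 tested were called lower (Lef1, Synpo2 and Tcf7l2), at 24 h 2 of 6 lower (Lef1 and Synpo2), and at 48 h the same pair was called higher. At 24 h saline replicates 5 and 6 held 77.4 and 102.7 CPM of Lef1 and 159 and 192 CPM of Synpo2, against 19.4 to 32.1 CPM and 29.7 to 66.5 CPM in replicates 1 to 4.

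The sum of Th, Slc6a3, Ddc and Slc18a2 followed the split by Xist and by Prkcd, Lef1 and Synpo2 among the saline wells. In the 6 saline wells low in Xist this sum was 141 to 233 CPM (median 197), beside a sum of Prkcd, Lef1 and Synpo2 of 169 to 331 CPM. In the other 12 the dopamine sum was 262 to 380 CPM (median 311) and the thalamic sum 36.9 to 113 CPM. Neither sum overlapped between both sets of saline wells. How many of all genes separate these wells was not counted. The 3 thalamic genes summed are those called lower at 72 h. Their high level in the saline wells of 72 h, which belong to the low Xist set, was thus partly set by this choice. The sum of all 8 listed thalamic genes overlapped, at 1621 to 1666 CPM in saline wells of 72 h and 1324 to 1642 CPM in those of 6 h. The IFN-γ wells low in Xist fell apart by time, with a dopamine sum of 197 to 265 CPM in the 6 wells of 24 h and 429 to 532 CPM in the 6 of 72 h. Those high in Xist had 279 to 493.4 CPM, so all wells of 24 h lay below them, while of the wells of 72 h 5 lay within their range and 1 above it. The thalamic sum was 8.99 to 64.3 CPM in IFN-γ wells low in Xist and 13.4 to 145 CPM in those high in Xist. The part of these markers in the 72 h change was not tested.

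**Figure D3:**
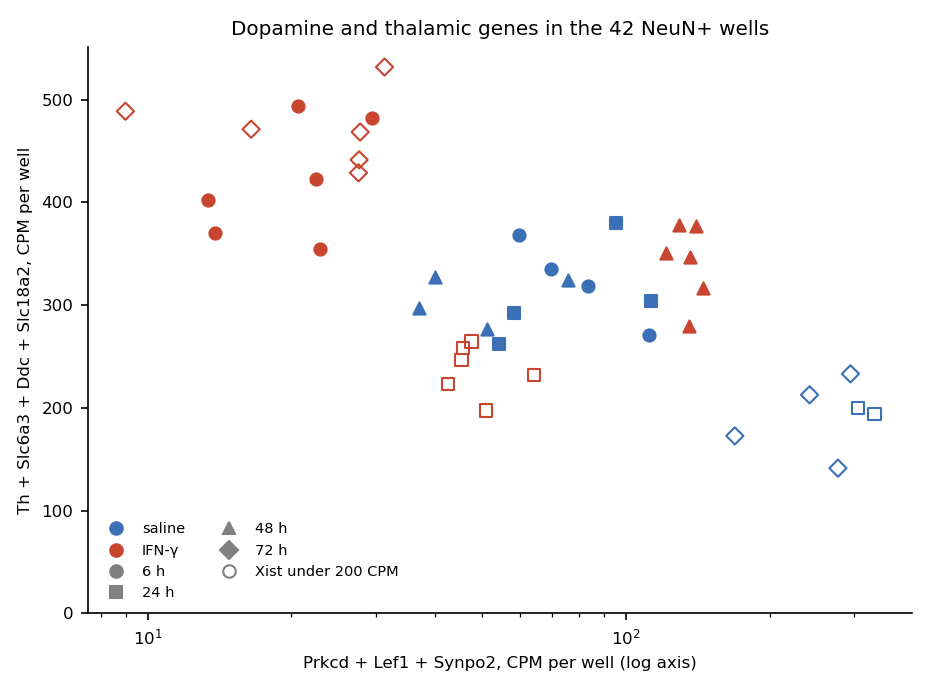
Sum of Th, Slc6a3, Ddc and Slc18a2 (CPM) against the sum of Prkcd, Lef1 and Synpo2 (CPM) in the 42 NeuN+ wells, by treatment, time and Xist level. The 6 saline wells low in Xist lie apart, at 141 to 233 CPM of the dopamine genes and 169 to 331 CPM of the thalamic genes. The thalamic genes shown are those called lower at 72 h, so part of this separation was set by their choice.

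Other neuron and glia genes gave a mixed picture beside the dopamine genes. At 72 h 0 of 3 GABA genes and 0 of 3 glutamatergic genes tested were called, with median log2 fold changes of 0.07 and -0.66. All 3 glutamatergic genes were nevertheless lower with an adjusted p under 0.01, namely Slc17a6 (-0.66, adjusted p = 8.48e-06), Ntng1 (-0.76, 1.53e-08) and Cacna2d1 (-0.31, 0.00820). Their sum was 2119 ± 58.8 CPM after saline and 1480 ± 42.9 CPM after IFN-γ, without overlap. IFN-γ wells all lay below for 2.06% of 16483 single genes. At 24 h, with all saline wells, Gad1 and Gata3 of the 3 GABA genes were called lower. Tph2, the serotonin synthesis enzyme of the raphe, was called higher at 6 h (log2 fold change 1.69, adjusted p = 0.000161) and at 72 h (2.10, adjusted p = 0.000246), from 4.09 ± 1.90 to 17.4 ± 6.25 CPM at 72 h. No cholinergic gene passed the filter at any time. The summed glial genes in NeuN+ wells were higher at 72 h after IFN-γ, at 611 ± 38.0 against 346 ± 20.03 CPM, with 0 of 8 tested called. At 6 h they were lower, at 173 ± 19.6 against 309 ± 37.7 CPM.

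Of 16 other genes of dopamine neurons, such as the receptor tyrosine kinase Ret, the nicotinic subunits Chrna6 and Chrnb3 and the factors Foxa2, Lmx1a and Lmx1b, 11 could be tested at 72 h. None of the 11 was called by edgeR, 9 had a positive log2 fold change, and their median was 0.70. Sox6, a factor of nigral dopamine neurons that glial precursors also express, had 0.90 (adjusted p = 5.14e-06), Satb1 0.93 (1.38e-05) and the potassium channel gene Kcnj6 0.37 (0.00268). The summed level of the 16 genes in NeuN+ wells was 518 ± 55.6 CPM after saline and 775 ± 52.4 CPM after IFN-γ, without overlap. IFN-γ wells all lay above for 3.20% of 16483 single genes. In NeuN- wells of 72 h the same sum was 511 ± 41.2 CPM after saline and 401 ± 92.9 CPM after IFN-γ. It reached 828 ± 128 CPM in NeuN- IFN-γ wells of 24 h, so this sum is not particular to dopamine neurons. In NeuN+ wells 0 of 10 at 6 and 24 h and 0 of 11 at 48 h were called, with medians of 0.15, 0.04 and 0.05.

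Lmx1a, a factor that specifies dopamine progenitors, had a course unlike that of Slc6a3 and Slc18a2. In IFN-γ wells it was at 34.2 to 40.3 CPM at 6 h, 80.7 to 89.0 CPM at 24 h, 36.1 to 57.9 CPM at 48 h and 31.5 to 59.6 CPM at 72 h, so its wells of 24 h lay above all others. Saline wells of 24 h were at 32.1 to 64.8 CPM. It passed as differing between times in IFN-γ wells (largest log2 difference 1.19, adjusted p = 1.72e-10), and its IFN-γ effect differed between times (1.29, adjusted p = 3.91e-05), as did that of Chrnb3 (1.63, adjusted p = 0.000553). Lmx1a is not confined to dopamine neurons here. In the single nuclei it was also a top gene of an unnamed cluster of 132 nuclei. The markers of that cluster scored 1.01 for VGLUT2 and 0.47 for dopamine neurons. Of the genes of dopamine cofactors, breakdown and other receptors, 5 or 6 of 15 could be tested in NeuN+ wells and 1 was called at any time, the monoamine oxidase gene Maob at 24 h. Maob went from 8.57 ± 2.97 to 17.0 ± 4.70 CPM (log2 fold change 1.05, SE 0.24, adjusted p = 0.00422).

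The transmitter genes varied together from well to well. Over the 18 saline NeuN+ wells, Pearson's r on log2(CPM + 1) was 0.81 between Slc6a3 and Ddc, 0.77 between Ddc and Slc18a2, 0.76 between Slc6a3 and Slc18a2 and 0.74 between Slc6a3 and Drd2. Over the 24 IFN-γ wells the same pairs gave 0.79, 0.86, 0.85 and 0.80. Th followed them less closely in saline wells, with 0.46 to Slc6a3 and 0.14 to Ddc, and Nr4a2 went from 0.63 with Ddc in saline wells to -0.42 in IFN-γ wells. Over the 18 saline wells Th held only 219 UMIs, against 1735 for Ddc and 2084 for Slc18a2. Counting error therefore weighs more on the r of Th, and its part was not tested. All these correlations describe wells that share mice, depth and composition.

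Among the genes most like the mean z score of Th, Slc6a3, Ddc and Slc18a2 over the 18 saline wells, of 10057, were Nwd2 (r = 0.88), Xist (0.87), the sterol enzyme gene Hmgcs1 (0.83), Rgs6 (0.82), Tsix (0.82), Fdft1 (0.81), Cntnap4 (0.81), Slc15a2 (0.80) and Gm10516 (0.79). Over the 24 IFN-γ wells Rgs6 (0.77), Cntnap4 (0.72) and Nwd2 (0.60) stayed highest among them, while Xist (0.12), Tsix (0.11), Fdft1 (-0.09), Hmgcs1 (-0.22) and Slc15a2 (-0.34) did not follow.

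In NeuN- wells 0 of the 10 genes passed the filter on low counts at any time, so none could be tested by edgeR there in the filtered tables, of which 11.7%, 14.6%, 1.40% and 1.13% of genes were called at 6, 24, 48 and 72 h. Ddc was frequent enough to follow. At 6 h it was at 21.8, 59.95, 59.98 and 19.1 CPM in saline wells and 0 to 26.1 CPM (median 14.9) in IFN-γ wells. At 24 h it was at 0 to 84.8 CPM (median 43.5) against 0 to 14.7 CPM (median 3.84), or 24 UMIs in 6 saline wells against 6 UMIs in 6 IFN-γ wells. In both cases the IFN-γ wells were lower but overlapped with the saline wells. NeuN- saline wells of all times also varied in Xist, from 39.6 to 6066 CPM, and in Eif2s3y, from 0 to 590 CPM. No fit of NeuN- wells was made without wells that differed in these genes. Without the filter the log2 fold change of Ddc at 24 h was -2.57 (adjusted p = 0.00106, edgeR) and by DESeq2 it was -2.86 (0.00328), while at 6 h neither passed (-1.41, adjusted p = 0.204, and -1.53, 0.157).

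The effect on Ddc differed between the fractions at 24 h, with NeuN+ above NeuN- by 2.58 on the log2 scale (SE 0.68, adjusted p = 0.00699). The call was lost without any one of NeuN- saline replicates 1, 4 and 5 or IFN-γ replicates 1, 4 and 6, with adjusted p-values up to 0.0370. Ddc was the 1 gene called of 6 tested, where 4.22% of 7628 genes were called. This interaction was not refitted without wells that differed in Xist. The difference was 1.73 at 6 h (SE 0.57, adjusted p = 0.0453) and 1.57 at 72 h (SE 0.54, adjusted p = 0.155), neither of which passed. For the interaction at 6 h (5 tested, 2.53% of 5968 genes called), at 48 h (5 tested, 0.128% of 6227) and at 72 h (6 tested, 0.347% of 7494), 0 of these genes were called by either tool, with 1, 0 and 2 at an unadjusted p below 0.05. At 48 and 72 h Ddc in NeuN- wells averaged 31.4 and 31.0 CPM after saline and 33.1 and 23.1 CPM after IFN-γ. The oligodendrocyte genes Mal and Mog were called lower in the same NeuN- wells at 6 h, and Mal, Mag, Mog and Mobp at 24 h, and their part in the Ddc difference was not tested. Aldh1a1 was at 14.4 to 44.1 CPM (median 28.5) in NeuN- saline wells and 29.4 to 53.7 CPM (median 47.4) in IFN-γ wells of 24 h, with overlap.

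**Figure D4:**
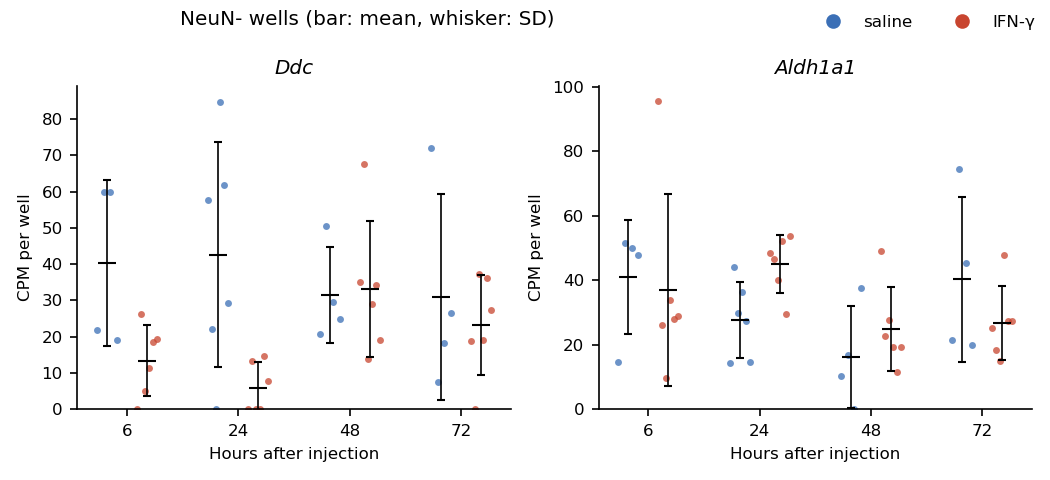
CPM of Ddc and Aldh1a1 in every NeuN- well by hours after injection, saline and IFN-γ side by side. Ddc is lower in IFN-γ wells at 6 and 24 h (means 13.4 and 5.94 CPM against 40.2 and 42.6 CPM), with overlapping wells.

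The single nuclei, all from 48 h, place these genes in cell classes. Nuclei were clustered and named without any of the 10 genes, by 11 other dopamine markers such as Ret, Lmx1b and Chrna6. The gene 1700042O10Rik, which overlaps Ddc, was not excluded from clustering, and it was a top gene of the dopamine-like clusters 6 and 10. A dopamine-like class of 432 nuclei of 4699 resulted, with 173 saline nuclei and 151 and 108 nuclei of the IFN-γ libraries. The other classes were GABA-like (1130 nuclei), VGLUT2-like (1240), oligodendrocyte-like (1241) and astrocyte-like (193), with 463 nuclei left unnamed. Libraries shared 0 cell barcodes. As the cells were clustered on this same RNA, differences between classes are given as descriptions.

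Slc6a3 was found in 90.3% of dopamine-like nuclei (95% exact binomial interval 87.1 to 92.9%) and in 2.12% of GABA-like nuclei, which should lack it, at median depths of 19385.5 and 17163 UMIs. Th was found in 82.9% against 0.796%, Ddc in 94.4% against 7.52%, Slc18a2 in 95.4% against 24.4% and Drd2 in 83.1% against 12.9%. With every nucleus thinned to 2000 UMIs, which left out 194 shallower nuclei, these shares in the dopamine-like class were 58.1% for Slc6a3, 25.4% for Th, 72.9% for Ddc, 67.1% for Slc18a2 and 36.8% for Drd2, against 0.532%, 0%, 1.60%, 3.46% and 1.86% in the GABA-like class. The transmitter genes were thus common in the class named from other markers and rare in the GABA-like class. The authors, however, had named dopamine clusters by genes that include Th and Slc6a3. Before deposit they had also left out ambiguous neuronal clusters, for example with Gad1, Gad2 and Th together. Part of this contrast could thus have been set by that selection.

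Of the factors, Nr4a2 was found in 80.6% of dopamine-like nuclei, En1 in 80.8% and Pitx3 in 36.3%, and thinned shares were 22.5%, 21.6% and 5.09%. Slc10a4 was found in 68.3% and Aldh1a1 in 38.2%. Aldh1a1 was also the 1 gene of the 10 that stood higher in another class, at 247 CPM in astrocyte-like and 198 CPM in dopamine-like nuclei, and 60.6% of astrocyte-like nuclei held it. Ddc had 52.3 CPM in oligodendrocyte-like nuclei, against 6.00 CPM in GABA-like and 780 CPM in dopamine-like nuclei.

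Between saline and IFN-γ libraries at 48 h, 0 of the 10 genes were called in the dopamine-like class by edgeR or DESeq2, and 0 had an unadjusted p below 0.05, where 0.0503% of 15894 genes were called at a log2 fold change beyond 3. Th was at 156 CPM in the saline and 149 and 169 CPM in the IFN-γ libraries, and Ddc at 777, 834 and 721 CPM. Slc6a3 was at 557, 572 and 455 CPM, Slc18a2 at 675, 652 and 630 CPM and Drd2 at 236, 285 and 202 CPM. In each of these 5 genes except Slc18a2, the saline library lay between both IFN-γ libraries. The libraries also differed in the mix of dopamine-like clusters, given below. Nr4a2 was at 143, 120 and 130 CPM, En1 at 127, 109 and 121 CPM, Pitx3 at 26.8, 30.4 and 27.9 CPM, Aldh1a1 at 194, 229 and 168 CPM and Slc10a4 at 77.6, 68.8 and 88.0 CPM. The log2 fold changes ran from -0.20 for Nr4a2 to 0.12, with SEs of 0.19 to 0.26 and adjusted p-values of 1.00. With 1 saline library, the spread between saline mice is unknown here.

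In VGLUT2-like nuclei Nr4a2 was at 3.91 CPM in the saline library and 10.1 and 13.2 CPM in the IFN-γ libraries, a log2 fold change of 1.54 (SE 0.35, adjusted p = 0.549, edgeR). Both IFN-γ values lay above the saline interval of 2.36 to 6.11 CPM, but the difference did not pass the test. Of the 10 genes, 0 were called in VGLUT2-like nuclei (0.0212% of 18835 genes) or in GABA-like nuclei (0.0107% of 18636 genes) by edgeR or DESeq2, and 1 and 0 had an unadjusted p below 0.05. The dopamine-like class held 90.8% of all Nr4a2 UMIs in the saline library and 61.1% and 70.8% in the IFN-γ libraries, and 98.4%, 96.6% and 96.9% of those of Slc6a3. Shares of nuclei per class differed between libraries, so these shares do not compare levels.

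The dopamine-like class consisted of 3 clusters. Cluster 6 (248 nuclei) had 550 CPM of the nigral marker Sox6 and 56.5 CPM of Calb1, and cluster 10 (153 nuclei) had 54.7 CPM of Sox6, 160 CPM of Calb1 and 27.0 CPM of the tegmental marker Otx2, against 1.16 CPM in cluster 6. Slc6a3 was at 640 CPM in cluster 6 and 318 CPM in cluster 10, Drd2 at 294 and 132 CPM, and Pitx3 at 32.3 and 19.98 CPM. Th went the other way, at 145 and 184 CPM, while Nr4a2 (136 and 128 CPM) and En1 (120 and 121 CPM) lay close together. The third cluster, 23, held 31 nuclei with a median of 1687 UMIs. Cluster 6 held 109 saline nuclei and 97 and 42 nuclei of the IFN-γ libraries, and cluster 10 held 61, 36 and 56. Levels over the whole class therefore also depend on this mix. In the same order, Slc6a3 was at 663.2, 617.9 and 619.5 CPM within cluster 6 and 292.2, 421.8 and 289.6 CPM within cluster 10.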

How the data were processed

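For the sorted bulk nuclei the authors trimmed poly(A) tails, aligned reads with STAR to GRCm38 and Gencode vM10 and collapsed reads of the same well barcode, UMI and gene, and they deposited raw counts per gene and well. For the single nuclei (10x 3′ v3) the authors counted UMIs over gene bodies with introns. The deposited table holds what was left after poor nuclei, doublets, rare populations and ambiguous neuronal clusters had been taken out. Rows without a gene identifier held 0 UMIs.

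Bulk counts were tested with edgeR 4.0.16 (limma 3.58.1, R 4.3.3) on all genes: filterByExpr, TMM factors, the quasi-likelihood F test and Benjamini-Hochberg adjustment. Fits used the wells of 1 fraction and time, with treatment as the only term; further fits took saline or IFN-γ wells over the 4 times, the interactions of treatment with time and with fraction, and NeuN+ against NeuN- saline wells. A gene was called at a log2 fold change beyond 1 (0.5 between fractions) and an adjusted p below 0.01. SE is the absolute log2 fold change divided by the square root of F. Levels are CPM on total UMIs.

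Nuclei were clustered with Python 3.11.15 (scikit-learn 1.9.0, igraph 0.11.9, leidenalg 0.10.2) on 2000 variable genes without the 10 genes, with 30 principal components, 15 neighbours and Leiden resolution 1. A cluster was named from its markers by a lead of 0.75 in mean z score and at least 3 markers in 5% of its nuclei. It stayed unnamed if its depth was more than 3 times below its library's median and its top 10 genes held no own marker. The same held if markers of other classes outnumbered own ones among the top 10 genes. UMIs were summed per library and class and tested in edgeR, for genes with at least 10 UMIs, with a call at a log2 fold change beyond 3 in both IFN-γ libraries. Intervals cover counting error only.

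Alternatives were RLE factors, no filter on low counts, DESeq2 1.42.0, saline wells of all times, 1 fit of all 84 wells, each well left out, other clustering resolutions (0.5 and 2), and other control wells chosen after seeing the data. The procedures were checked on simulated counts with 200 changed genes. The simulated wells were independent of each other, without shared mice or the split by Xist, so this check does not cover those limits. The genes, the gene lists (dopamine neuron; cofactor, breakdown and receptor; thalamic; GABA; glutamatergic; serotonin; cholinergic; glia) and the motifs were chosen with earlier results of these data known. A gene of a list was named when it was called in a comparison or was among the 4 of its list with the highest mean CPM, and a few others were named as examples after their values were seen. The likeness of genes used log2(CPM + 1). Motif counts used RefSeq promoters of GRCm38.p6. Results of a few list genes and of 1 gene among the 10 most alike are not reported here.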

Additional observations from a re-analysis of the deposited data

Results flagged for a closer look

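Among the levels of the 10 genes in groups of 4 or 6 wells, 6 of 96 groups held a well whose gap to its nearest neighbour was large for the range of the group, and chance gives about 1 in 20. In NeuN+ saline wells of 24 h, replicate 3 had Drd2 at 76.88 CPM (others 36.09 to 51.16) and Slc10a4 at 7.786 CPM (others 2.509 to 4.092), and replicate 2 had Aldh1a1 at 52.24 CPM (others 26.34 to 34.06). In NeuN+ saline wells of 72 h, replicate 4 had En1 at 5.557 CPM (others 11.02 to 12.02), and without it En1 was not called at 72 h (log2 fold change 0.84, adjusted p = 0.0760, edgeR). In NeuN- wells of 6 h, replicate 1 of saline had Aldh1a1 at 14.51 CPM (others 47.73 to 51.38), and replicate 1 of IFN-γ had it at 95.41 CPM (others 9.704 to 33.91), from 2 UMIs.

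The effect of IFN-γ in NeuN+ wells differed between times, by the interaction test of edgeR, by 2.07 on the log2 scale for Slc6a3, 1.34 for Slc18a2, 1.32 for Ddc, 1.29 for Aldh1a1 and 1.26 for Drd2. Wells of these times also differed in Xist, so time cannot be told apart from that split here. The effect on Ddc differed between NeuN+ and NeuN- wells at 24 h by 2.58.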

How the results depend on the processing

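The number of the 10 genes called stayed within 1.5 times its value in 355 of 379 settings over 19 comparisons. Many of these settings compared 0 with 0. In NeuN- wells, for example, 0 of the 10 genes passed the filter, so leaving out a well could hardly change the count. Nuclei with a library left out were entered as unchanged without a test. This tally therefore does not measure how stable the calls were. Of 2094 settings of single genes 40 lost and 19 gained a call and 2035 did neither. Among called values 0 changed sign, while 42 values without a call did. At 72 h the 6 calls in NeuN+ wells became 1 (Th) with saline wells of all times and 0 with the saline wells of other times, without replicates 5 and 6 of 24 h. There 54 and 74 of all genes were called, against 72. DESeq2 and the fit of all wells gave 4 calls each: DESeq2 lost Th (adjusted p = 0.0241) and En1 (0.0272). At 24 h the count in NeuN+ wells went from 0 to 1 (Nr4a2) with saline wells of all times and with replicates 5 and 6 as the only controls. In NeuN- wells at 24 h it was 1 (Ddc) without a filter, by DESeq2 and in the fit of all wells, where 639, 517 and 700 of all genes were called against 275. Between times in saline wells it was 1 (Slc6a3) without a filter and by DESeq2, where 63 and 9 of all genes were called against 5. The interaction with time went from 5 to 0 genes, and from 269 to 127 of all genes, without the 72 h wells and saline replicates 5 and 6 of 24 h. Between fractions the count went from 4 to 8 without a filter and 7 by DESeq2, with 7233 and 6463 of all genes against 3764.

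Leaving out each well in turn gave 0 to 1 genes at 24 h in NeuN+ wells, 4 to 6 at 72 h, 0 to 1 between times in saline and 2 to 3 in IFN-γ wells, 4 to 5 for the interaction with time, 0 to 1 for that with fraction at 24 h, and 3 to 4 between fractions. At 24 h Nr4a2 was called without saline replicate 1 or 2 or IFN-γ replicate 4 or 6. At 72 h the call of Th was lost without saline replicate 1, 2 or 4 or IFN-γ replicate 1, 3 or 4 (largest adjusted p = 0.0424), and that of En1 without saline replicate 1, 2 or 4 or IFN-γ replicate 2, 4 or 6 (0.0760). Slc6a3 was called between saline times without replicate 5 or 6 of 24 h. The interaction of Aldh1a1 with time was lost without saline replicate 4 of 72 h, and that of Ddc with fraction without NeuN- saline replicate 1, 4 or 5 or IFN-γ replicate 1, 4 or 6 of 24 h. Except where named, the cause of these changes was not tested. No paired analysis was possible because the labels give no replicate numbers. Leaving out an IFN-γ library of nuclei left no residual degree of freedom, so those values carry no test. Depth limits Pitx3 and Slc10a4 in NeuN+ wells and all 10 genes in NeuN- wells, where 3 UMIs correspond to 3.21 to 6.53 CPM of a group.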
